A study of Mus musculus with 3 samples.

Results

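Lecticans, tenascins, link proteins and the 2 membrane proteoglycans Ptprz1 and Cspg5 were examined in cultured mouse hippocampal neurons. These 10 genes, Acan, Bcan, Ncan, Vcan, Tnr, Tnc, Hapln1, Hapln4, Ptprz1 and Cspg5, were taken by name from 47593 gene rows, and each had a row. RNA had been sequenced in 3 libraries, replicates 1 to 3 of 1 group: wild-type (WT) primary neurons, grown, per the labels, at 37 °C under 5% CO2 in Neurobasal (10% B27, 1% GlutaMAX) and then in fresh medium that held B27 and penicillin-streptomycin. The treatment time in fresh medium was 24 h for all 3 libraries. The series design also has an arm with apoE particles for 24 h, which was not analysed. The account is therefore one of levels in untreated neurons and of the spread between libraries. The labels do not tie the libraries to separate cultures or animals, so that spread may be technical. No label gives age, strain, days in culture or the number of animals.

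Lecticans are chondroitin sulfate proteoglycans that bind the long sugar hyaluronan through one end and tenascins through the other. Link proteins, encoded by the Hapln genes, clamp the lectican to hyaluronan, and tenascin-R (Tnr) cross-links lecticans. Condensed around the cell body and dendrites of certain neurons, above all parvalbumin interneurons, this matrix forms the perineuronal net, a structure that matures late and is known for limiting plasticity. Neurocan (Ncan) and versican (Vcan) belong mainly to the loose matrix of the young brain, whereas aggrecan (Acan) is the defining core of the mature net. Neurons, astrocytes and oligodendrocyte precursors all make some of these genes.

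Levels are given as recovered reads, obtained by undoing the shrinkage in the deposited log2 values, and as counts per 1000000 reads of the library (CPM). Libraries held 18780572, 18683966 and 18885652 such reads, so that a gene with no read in a library lay below about 0.16 CPM there, the value of 3 reads. Errors written ± are SD over the libraries (n = 3). Intervals are exact 95% Poisson intervals for 1 library and cover counting error only. The deposited log2 values have SDs of 0.0013 (Acan) to 0.0369 (Vcan), which shrinkage makes too small.

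All 10 genes were detected at 1 CPM or more in each library, a rule that 29.4% of all gene rows passed on deposited values and 28.7% on recovered reads. At 5 CPM or more, 8 of the 10 were detected, all but Acan and Hapln4. Summed over the 10, they held 0.253%, 0.252% and 0.257% of reads in replicates 1, 2 and 3. Ptprz1 and Ncan alone made up 64.8% of those reads. Levels ran from 1004 ± 16.4 CPM for Ptprz1 down to 1.12 ± 0.0973 CPM for Acan. Per kilobase of exon, their median was 12.1 CPM, against 6.10 CPM over the 13532 detected genes with a gene model.

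**Figure D1:**
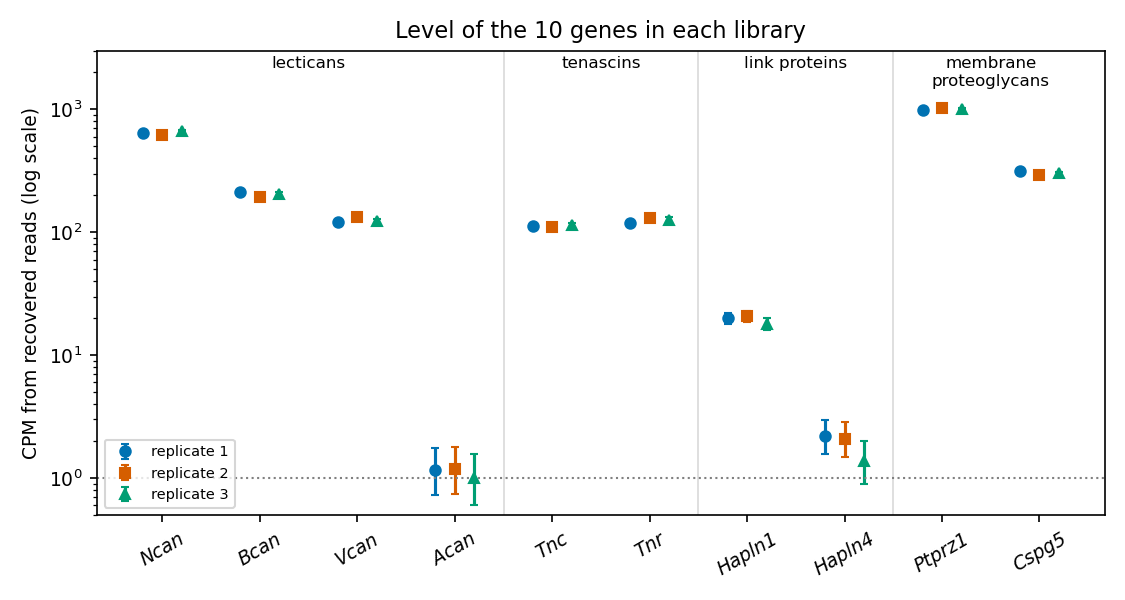
Level of each of the 10 genes (horizontal axis, grouped by protein family) in CPM from recovered reads (vertical axis, log scale); points are the 3 libraries, bars exact 95% Poisson intervals, and the dotted line is 1 CPM. Acan and Hapln4 sit near 1 to 2 CPM in every library, the other 8 genes between 17.9 and 1018 CPM.

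Among lecticans, neurocan dominated and aggrecan was close to the detection threshold of 1 CPM. Ncan (chromosome 8, 70093085 to 70120873, GRCm38) had deposited log2 values of 13.556, 13.521 and 13.594 in replicates 1, 2 and 3, from 12108, 11483 and 12597 reads. Replicate 3 was highest and replicate 2 lowest, and the mean was 642 ± 26.3 CPM. Brevican, the short lectican of perisynaptic matrix, is encoded by Bcan (chromosome 3, 87987531 to 88000230) and had 3960, 3599 and 3876 reads, or 203 ± 9.34 CPM, again lowest in replicate 2. Vcan (chromosome 13, 89655312 to 89742509) had 2277, 2510 and 2318 reads, or 126 ± 7.17 CPM, and was highest in replicate 2. For Acan (chromosome 7, 79053483 to 79115099) only 22, 22 and 19 reads were found. Its level in replicate 3 was 1.01 CPM (interval 0.606 to 1.57), and the intervals of the 3 libraries overlapped.

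Set against each other per kilobase, Ncan took 60.3% ± 0.697 of the summed lectican level, Bcan 33.7% ± 0.747, Vcan 5.90% ± 0.543 and Acan 0.101% ± 0.0114. Within a library, Bcan lay below Ncan by a log2 ratio per kilobase of −0.84 ± 0.025 in deposited values. The ratio was −3.35 ± 0.068 for Vcan over Ncan and −8.69 ± 0.037 for Acan over Ncan, with 0.5 CPM added to each gene. For Acan over Ncan it was −9.22 with none added and −6.78 with 5 CPM. In recovered reads the SDs of these 3 ratios were 0.045, 0.135 and 0.141, so each difference was many times the spread between libraries. That spread does not cover the choice of gene length, on which the shares rest too. Bcan over Ncan was −0.46 with the longest transcript and −1.66 without length scaling. Among all detected genes, Ncan stood at percentile 97.2 of the level per kilobase, Bcan at 93.6, Vcan at 59.9 and Acan at 0.443.

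Tenascin-C and tenascin-R were both well expressed and lay close together. Tnc (chromosome 4, 63959785 to 64047015), a matrix protein of young and injured brain made largely by glia, had 2120, 2058 and 2174 reads, or 113 ± 2.49 CPM. Tnr (chromosome 1, 159523769 to 159931729) had 2251, 2449 and 2400 reads, or 126 ± 5.69 CPM, with replicate 1 lowest. Per kilobase the order was the other way round, with Tnr over Tnc at −0.57 ± 0.036 (SD 0.083 in recovered reads), the same sign in 3 of 3 libraries. Without length scaling the ratio was 0.16, because the exons of Tnr sum to 12867 bases and those of Tnc to 7772. An antisense gene shares 3.44% of the exon bases of Tnr and a noncoding gene 2.26% of those of Tnc. No source says whether counting used the strand, so such reads cannot be told apart. The other tenascins added little: Tnxb had 19, 13 and 15 reads and Tnn 1, 3 and 2.

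Link proteins were scarce beside the lecticans they stabilise. Hapln1 (chromosome 13, 89539796 to 89611652), the cartilage link protein that is also part of the net, had 373, 386 and 338 reads, or 19.5 ± 1.42 CPM. Hapln4 (chromosome 8, 70083457 to 70090862), the brain link protein that partners brevican, had 41, 39 and 26 reads. Its levels of 2.18, 2.09 and 1.38 CPM had overlapping intervals, of which the lowest reached from 0.899 to 2.02 CPM. Hapln1 over Hapln4 was 2.48 ± 0.011 (log2 per kilobase, 0.5 CPM added), with an SD of 0.190 in recovered reads. Its size rested on the added value, being 2.78 with none and 1.24 with 5 CPM. Of the link protein level per kilobase, Hapln1 took 75.6% ± 2.05, Hapln4 10.9% ± 1.69, Hapln3 10.3% ± 0.551 and Hapln2, a link protein of myelinated axons, 3.29% ± 1.15. The 4 lecticans together exceeded the 4 link proteins 34.1 ± 4.14 fold per kilobase, and exceeded the 4 tenascins 6.07 ± 0.230 fold.

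Both membrane proteoglycans were abundant. Ptprz1 (chromosome 6, 22875502 to 23052916) encodes a receptor tyrosine phosphatase whose secreted splice form is phosphacan, a ligand of tenascins and of contactin. It had 18513, 19021 and 19013 reads, or 986, 1018 and 1007 CPM, the smallest spread of the 10 genes (1.63% of the mean). The values are per gene, so receptor and phosphacan transcripts are not separated. Cspg5 (chromosome 9, 110243783 to 110262576), neuroglycan C, had 5879, 5520 and 5687 reads, or 303 ± 8.98 CPM, lowest in replicate 2. Ptprz1 over Cspg5 was 1.23 ± 0.039 (log2 per kilobase; SD 0.066 in recovered reads).

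Per kilobase of exon union, the order from high to low was Ncan, Ptprz1, Bcan, Cspg5, Tnc, Tnr, Vcan, Hapln1, Hapln4 and Acan. A neighbour was called apart where the recovered-read log2 ratio had 1 sign in 3 of 3 libraries and a mean above 2 SD. By that rule all 9 neighbours were apart, from the smallest step, Tnr over Vcan (0.17 ± 0.045), to the largest, Hapln1 over Hapln4 (2.81 ± 0.269). Since neighbours are defined by their levels, these steps are a description. The top of the order rested on the gene model: with the longest transcript, 8068 bases for Ptprz1 in place of a union of 14245, Ncan over Ptprz1 went from 0.34 to −0.48. Tnr over Vcan then shrank to 0.03, which is not apart.

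**Figure D2:**
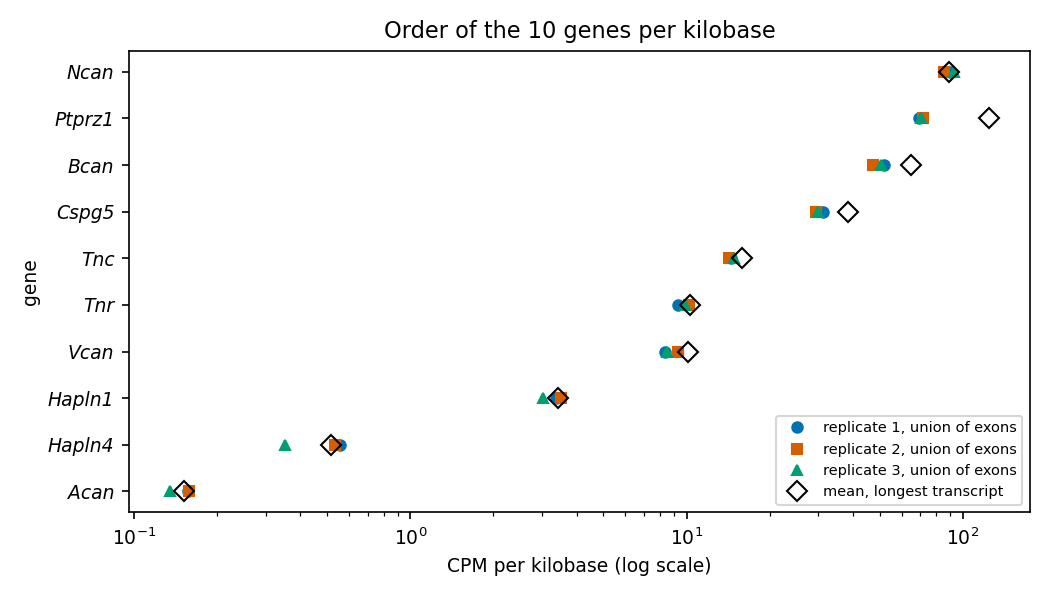
CPM per kilobase (horizontal axis, log scale) of the 10 genes (vertical axis, in the order of the union of exons); filled points are the 3 libraries and open diamonds the mean with the longest annotated transcript as length. Ptprz1 moves from 70.4 to 124 CPM per kilobase with the shorter length and passes Ncan at 89.2, while the 3 lowest genes keep their places.

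The position of the genes was shared in pairs that the gene names do not show. In GENCODE M21 each of the 4 lectican genes lies beside a link protein gene, with 0 protein-coding genes between them. Ncan and Hapln4 are 2222 bases apart, Vcan and Hapln1 43659, Bcan and Hapln2 21519, and Acan and Hapln3 only 2. All but the Bcan pair lie tail to tail. Levels within these pairs were far from matched, as the recovered-read log2 ratios per kilobase show; the pairs were set side by side after their values were known. Ncan over Hapln4 was 7.33, 7.33 and 8.05 in replicates 1, 2 and 3, and Bcan over Hapln2 was 8.17, 9.04 and 8.34. Vcan over Hapln1 was smaller, at 1.32, 1.41 and 1.48. The Acan pair had the opposite sign, with Hapln3 the higher gene (−1.63, −1.63 and −1.48; Hapln3 had 32, 32 and 25 reads). With 2 bases between their ends, reads of Acan and Hapln3 near that border may have been assigned to either gene, and this was not tested.

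Sequence before the start site is shown for the genes with the most and the fewest reads of the 10, Ptprz1 and Acan. Each window holds the 250 bases before the RefSeq start (GRCm38.p6), plus strand, 5′ to 3′, with capitals at GC boxes, that is GGGCGG or its reverse complement CCGCCC; matches may overlap. Ptprz1 is read at chr6:22875252-22875501 and Acan at chr7:79052976-79053225.
Ptprz1: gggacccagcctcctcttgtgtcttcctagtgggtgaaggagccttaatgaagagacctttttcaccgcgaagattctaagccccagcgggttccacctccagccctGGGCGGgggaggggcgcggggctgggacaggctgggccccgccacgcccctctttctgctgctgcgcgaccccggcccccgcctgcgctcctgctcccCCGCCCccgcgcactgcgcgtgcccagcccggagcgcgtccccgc
Acan: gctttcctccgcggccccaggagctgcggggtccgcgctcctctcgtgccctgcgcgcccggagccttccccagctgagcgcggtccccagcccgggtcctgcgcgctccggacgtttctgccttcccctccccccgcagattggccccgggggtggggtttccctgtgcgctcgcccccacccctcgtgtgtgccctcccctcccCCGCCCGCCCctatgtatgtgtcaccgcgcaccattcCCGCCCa
Both windows are rich in CG dinucleotides, 22 in Ptprz1 and 26 in Acan, against a median of 6 over 32851 windows of this length. GC boxes numbered 2 and 3, and 32.7% of all windows hold at least 1. Neither window holds TATAAA on either strand, which 12.4% of all windows do. The genes at opposite ends of the read counts had windows alike in these features. Of the 10 genes 8 had an entry, all but Cspg5 and Hapln4. CG dinucleotides numbered 16 for Bcan, 10 for Vcan, 6 for Ncan, 2 for Tnr and 2 for Hapln1, and 8 and 10 at the 2 starts of Tnc. Of these 8 genes, only Ncan and Tnc (at each of its starts) had TATAAA on either strand. Only Tnr and Hapln1 had no GC box.

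Differences between libraries were then set against counting error and against the spread usual for a gene of that level. Departures were small: apart from Acan, Hapln1 and Hapln4, which have few reads, no library lay more than 0.09 log2 units from a gene's mean. In a Pearson chi-square test on recovered reads, run over all 15131 genes whose mean reached 10 reads, 5 of the 10 differed by more than counting error, where 8.62% of all genes did. They were Ncan (adjusted p = 7.75e-08), Vcan (0.00568), Ptprz1 (0.00741), Bcan (0.0144) and Tnr (0.0411), with ranges between libraries of 1.04-fold (Ptprz1) to 1.12-fold (Vcan). Well-covered genes pass this test more readily. At a mean of 1000 reads and above, 22.1% of genes passed, and 7 of the 10 genes were in that class, among them all 5. Against the dispersion trend, which 0.304% of all genes exceeded at an adjusted p under 0.05, 0 of the 10 stood out in the same chi-square test (adjusted p of 0.891 to 0.998). An unadjusted p under 0.05 in that test was reached by 940 of the 15131 genes and by 0 of the 10. A list of 10 is too short for that count to set it apart.

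All 5 calls were lost without replicate 2, and those of Vcan, Tnr and Ptprz1 also without replicate 1. In replicate 2 Ncan, Bcan and Cspg5 were at their lowest and Vcan, Tnr and Ptprz1 at their highest. Replicate 1 lay farthest from the mean for Tnr (−0.07) and Ptprz1 (−0.03). Without replicate 2, 0 of the 10 exceeded counting error in the chi-square test, without replicate 1 only Ncan and Bcan did, and without replicate 3 Cspg5 joined the 5 (adjusted p = 0.0430). With total reads as the scale the calls were 3: Ncan, Bcan and Vcan. In replicate 2 the median departure of detected markers was −0.01 for pan-neuronal and −0.01 for astrocyte genes. It was −0.06 for interneuron, −0.00 for oligodendrocyte precursor and −0.00 for oligodendrocyte genes. The departures there were −0.06 for Ncan and −0.07 for Bcan, but 0.09 for Vcan, 0.06 for Tnr and 0.02 for Ptprz1. The fibroblast and mural median was −0.04, 0.07 and 0.08 in replicates 1, 2 and 3, from 5 detected genes. The part of these cell types in the differences was not tested.

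**Figure D3:**
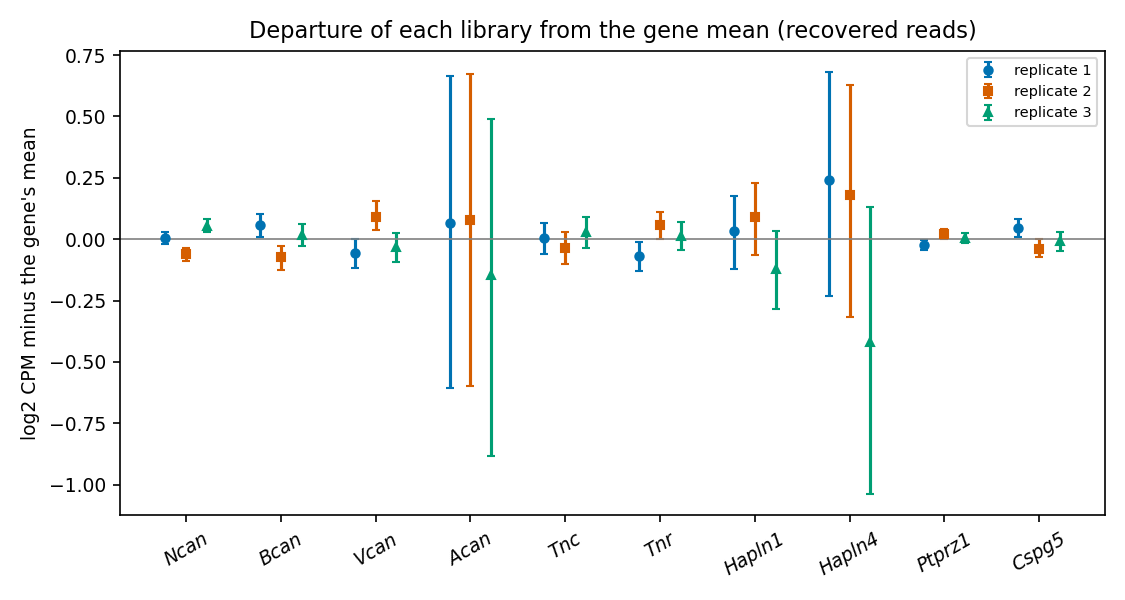
Log2 CPM of each library minus the mean of the 3 libraries (vertical axis) for each of the 10 genes (horizontal axis), from recovered reads, with exact 95% Poisson intervals. Ncan and Bcan lie below 0 in replicate 2 and Vcan above it, by at most 0.09, while the intervals of Acan and Hapln4 are wide and all overlap.

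The cells that could supply these transcripts were checked with 7 marker lists. All 10 pan-neuronal genes were detected (summed level 6814 to 6897 CPM over the libraries), with Mapt, Tubb3 and Stmn2 highest per kilobase. Interneuron genes were present, led by Sst, Gad1 and Gad2 (7 of 8 detected, 1000 to 1032 CPM), but the parvalbumin gene Pvalb, the marker of the cells that most often carry nets, had 11, 8 and 6 reads. Astrocyte genes were abundant as well, led by Fabp7, Slc1a3 and Aldoc (9 of 10 detected, 2441 to 2502 CPM), with Gjb6 at 2, 6 and 6 reads. S100b of that list, though detected, had only 52, 37 and 55 reads. Oligodendrocyte precursor genes, led by Olig1, Olig2 and Lhfpl3, summed to 297 to 313 CPM (5 of 6 detected). Sox10 of that list had only 62, 42 and 59 reads, and Gpr17 7, 3 and 2. Mature oligodendrocyte genes summed to 58.4 to 59.4 CPM (4 of 8 detected, led by Cnp, Mog and Mbp, with no read for Opalin). Mag, Mobp and Cldn11 of that list had 2, 1 and 11 reads over all libraries. Fibroblast and mural genes summed to 38.8 to 42.5 CPM (5 of 8 detected, led by Acta2, Pdgfrb and Col1a1, with no read for Kcnj8). Microglial genes summed to 2.82 to 4.98 CPM, with 0 of 8 detected and Tyrobp, Aif1 and Cx3cr1 highest. In such bulk RNA the share of each of the 10 genes that came from neurons or from glia was not tested, and fewer cells of a type cannot be told apart from less RNA per cell.

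Genes that build, modify, bind and cut this matrix were expressed unevenly, with 68 of 78 in 6 lists detected. Hyaluronan genes were low (8 of 11 detected). Per kilobase, Has3, a hyaluronan synthase, reached 3.45 ± 0.367 CPM and supplied 95.4% ± 1.77 of the synthase level. Has2 had 15, 16 and 8 reads, so that Has2 over Has3 was −3.65 ± 0.025 (SD 0.422 in recovered reads), and Has1 had none. With no added value that ratio was −4.40, and with 5 CPM added it was −1.65. The hyaluronidase gene Hyal2 (6.42 ± 0.292) and Ugdh (3.66 ± 0.142), which makes the sugar precursor UDP-glucuronate, were the highest of that list per kilobase.

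Enzymes of the chondroitin sulfate chain were found throughout. All 12 genes of the linker and of chain polymerisation were detected, led per kilobase by B3gat3 (39.7 ± 1.50 CPM), which ends the linker, the polymerising factor Chpf (25.8 ± 2.03) and the xylose kinase Fam20b (11.0 ± 0.613). Of 12 sulfation and epimerisation genes 11 were detected, led by the sulfate donor enzyme Papss1 (31.4 ± 0.652), Chst11 (11.0 ± 0.688) and Chst12 (6.78 ± 0.726), whereas Chst13 had no read. Chst11, which sulfates position 4 of the sugar, exceeded Chst3, which sulfates position 6, by 1.88 ± 0.017 (SD 0.007 in recovered reads), a 3.67-fold ratio. Chst3 had 334, 372 and 370 reads, whose counting error exceeds these SDs, so the SDs overstate how precise the ratio is.

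Receptors and partners that bind the matrix had the highest median level of the 6 lists, with all 13 genes detected. Ncam1 (95.2 ± 1.94 CPM per kilobase) and Cntn1 (42.1 ± 1.02) encode cell adhesion ligands of Ptprz1, and Rtn4rl2 (37.9 ± 4.27) a Nogo receptor relative. Ptprs, a receptor for chondroitin sulfate in axon growth arrest, lay below Ptprz1 at −1.53 ± 0.047 (SD 0.081). Of 13 further matrix genes 9 were detected. Ptn (121 ± 3.93), a growth factor that binds Ptprz1, led them with Spock2 (64.6 ± 2.46) and Mdk (46.2 ± 3.59), and Ptn exceeded its relative Mdk by 1.38 ± 0.050 (SD 0.132). Hapln2, Tnn and Srgn stayed below 1 CPM in every library.

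Of 17 protease and inhibitor genes 15 were detected. Highest per kilobase were the metalloproteinase inhibitor Timp2 at 156 ± 5.86 CPM per kilobase, the membrane-bound metalloproteinase Mmp15 at 13.3 ± 0.294 and Plat, tissue plasminogen activator, at 6.50 ± 0.171. All 7 genes of the ADAMTS family in the list, several of which cleave lecticans, were detected, from 0.181 ± 0.0115 CPM per kilobase for Adamts5 to 2.53 ± 0.323 for Adamts1. Timp3, an inhibitor of ADAMTS enzymes, stood at 5.35 ± 0.0551. Timp1 had 3, 5 and 7 reads and Mmp3 none. The median log2 CPM per kilobase over detected members was 3.57 for the 10 genes, 4.47 for receptors and partners, 3.15 for further matrix genes, 2.74 for chain synthesis, 1.56 for sulfation, 0.90 for hyaluronan and 0.53 for proteases, beside 2.61 for all detected genes.

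**Figure D4:**
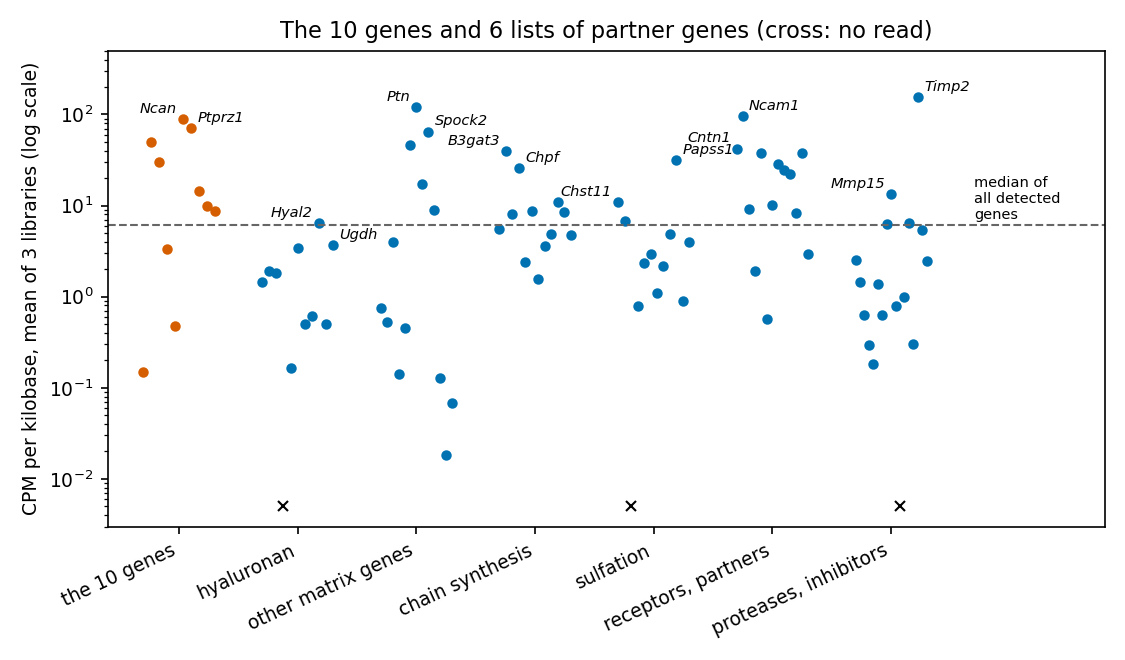
CPM per kilobase (vertical axis, log scale; mean of the 3 libraries) of the 10 genes and of the genes in 6 partner lists (horizontal axis); the dashed line is the median of all detected genes and crosses mark genes with no read. The 10 genes span from 0.150 to 89.2, with 7 of them above the line at 6.10.

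In each of the 10 gene pairs whose ratio is given with an added 0.5 CPM, the sign was the same in 3 of 3 libraries. The two-sided exact permutation test, which flips the signs of the 3 within-library ratios, gave p = 0.25 for each (adjusted 0.25). That is the smallest p that 3 libraries allow, so no pair could pass 0.05.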

How the data were processed

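Total RNA of 3 libraries was sequenced by BGI on its DNBSEQ platform, per the labels. The authors deposited 1 log2 value per gene and library; the submitters' processing notes name FastQC, HISAT2, featureCounts and DESeq2 with GRCm38, without a version, setting or role for any of them. The 47593 rows were the same in all 3 libraries, and 21897 were exactly 0 in each.

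The log2 values have the form of a regularized log. Reads were recovered by inverting a ridge-penalised negative binomial fit whose 6 parameters were fitted over all genes (Python 3.11.15, scipy 1.17.1). Of 60264 values above 3 reads per gene, 99.9% came within 0.1 of a whole number; of the values of the 10 genes, 93.3% did, the farthest lying 0.112 reads away. Refitting gave the deposited value to within 0.001 for all 10 genes. The planned read-count tests used these recovered reads, since deposited log2 values are not counts. The inversion, with its parameters known, and the chi-square test were also run on simulated data, whose outcomes are not given here. The fitting of the 6 parameters was not tested in that way.

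Lengths are unions of exons in GENCODE M21; 1 of 146 list genes, Cemip2, was matched by an older symbol. Pair ratios use 2 raised to the deposited value, scaled to CPM, plus 0.5, per kilobase. Benjamini-Hochberg adjustment ran over all genes tested or all pairs. The dispersion trend was fitted in bins of genes by mean reads. The libraries differed by more than sampling noise, so no library was counted as a copy of another. Chi-square per gene was 2.24 for replicates 1 and 3, against 3.82 for 1 and 2 and 3.37 for 2 and 3. This does not show separate cultures. Named genes are the 10, the pair genes, the 3 highest per kilobase in each list, partner-list members below 1 CPM in every library and markers without reads. Pvalb, Gjb6, S100b, Sox10, Gpr17, Mag, Mobp, Cldn11, Tnxb, Hapln3, Adamts1, Adamts5 and Timp3 were added after their values were seen. The 10 genes, lists and pairs were chosen with earlier results of these data known. The alternatives covered gene length, pseudocount, detection threshold, scaling, read minimum, recovered reads and leaving out each library.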

Additional observations from a re-analysis of the deposited data

How the results depend on the processing

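No paired analysis was possible because the 3 libraries form 1 group. Of 227 alternative values, 209 were called the same, 11 moved, 6 reversed and 1 fell below the rule for neighbours. Same meant within 1 SD for levels and the share, and within 1.5 times for counts. For ratios it meant the same direction, and for neighbours also the same side of the rule. When 1 library is left out, levels, the share, pair signs and detection cannot leave these bounds. Their calls under those settings therefore carry no information. The reversals follow from gene length. With the longest transcript Ncan over Ptprz1 was -0.48. Without length scaling it was -0.64, Bcan over Cspg5 -0.58, Tnc over Tnr -0.16 and Tnr over Vcan -0.0008 in the order, and the pair ratio Tnr over Tnc was 0.16; 5 of 9 neighbours then stayed apart in the same direction. Of the 10 genes, 3 exceeded counting error with total reads as the scale, and 0 to 6 when 1 library was left out, against 5. The cause was not tested. Over all genes, 1187, 334 and 835 exceeded counting error without replicates 1, 2 and 3, against 1304 with all libraries. Beyond the trend lay 7, 21 and 26, against 46. Fewer libraries leave fewer degrees of freedom. Ratios with a low gene changed in size with the added value: from none to 5 CPM, Hapln1 over Hapln4 went from 2.78 to 1.24, Has2 over Has3 from -4.40 to -1.65 and Acan over Ncan from -9.22 to -6.78, each with its direction kept. At 5 CPM, 8 of the 10 genes were detected. The share of the 10 genes was 0.275% of nuclear expression, against 0.254% of all. Acan and Hapln4, with 63 and 106 reads in all, are limited by depth.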
